A study of Mus musculus with 3 samples.

Results

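Pax2, Pax8, Sox4, Sox9, Prom1 and Cd24a are 6 of the 22535 genes in the count tables of a single-cell RNA sequencing study of mouse kidney. They were taken as a list of transcription factors and surface proteins associated with nephron progenitors, with no expression threshold, and all 6 were detected. Their unique molecular identifiers (UMIs, 1 per captured RNA molecule) were counted over 26760 of 30008 barcodes, those with at least 200 genes and at most 50% mitochondrial UMIs. Values are given by cell class and by library.

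The kidneys came from WT1CreERT2; Rosa26-tdTfl/+ mice given tamoxifen, so that the red fluorescent protein tdT marks cells in which the Wt1 locus drove Cre, and the descendants of those cells. All 3 libraries carry this genotype and treatment, and each holds 4 pooled kidneys. The Sham library and the IRI24h-TDN library, taken 24 h after ischemia and reperfusion (IRI) of both kidneys with severe injury, are both mixtures of sorted tdT+ cells with tdT- cells in which tdT+ cells are in excess. The IRI24h-TD library holds tdT+ cells alone after the same injury, so it comes from another sort gate and its values stand beside the others without a comparison. With 1 library per condition there is no replicate, no p-value is given, and all intervals (exact 95% Poisson for CPM, a gene's UMIs per 1000000 UMIs of the class and library, and exact 95% Clopper-Pearson for shares of cells) cover counting error only. The mice were adult, and their age in weeks is not given in the sources used here.

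Pax2 and Pax8 are paired-box transcription factors that specify the nephron lineage in the embryo and persist in parts of the adult nephron. Sox4 and Sox9 are SRY-related transcription factors of epithelial development, and Sox9 is known to be induced in tubule cells during repair. Prom1 encodes prominin-1 (CD133) and Cd24a encodes the surface glycoprotein CD24, which together have been used to mark putative progenitor cells of the Bowman's capsule and scattered tubular cells (STCs), single cells of injured-looking phenotype within proximal tubules. The study asked whether WT1+ parietal epithelial cells (PECs), which line the Bowman's capsule, carry such markers and pass through an STC stage toward proximal tubular epithelial cells (PTECs).

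The genes lie on separate chromosomes of the mouse assembly GRCm38. Pax2 is at chr19:44756045-44837871 on the plus strand, Pax8 at chr2:24420560-24475599 on the minus strand, and Sox4 at chr13:28948919-28953713 on the minus strand. Sox9 is at chr11:112782224-112787760 on the plus strand, Prom1 at chr5:43993620-44102032 on the minus strand, and Cd24a at chr10:43578284-43584265 on the plus strand.

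The tables of Sham, IRI24h-TDN and IRI24h-TD held 69980443, 92355554 and 93470709 UMIs over all 10062, 10062 and 9884 barcodes. The 8047, 9024 and 9689 cells kept had medians of 7746, 9151 and 9529 UMIs. Between 82 and 96 barcodes occurred in both libraries of a pair, and leaving them out kept 49 of 49 ratios of the 6 genes within their intervals. Clusters were made without the 6 genes, the other Pax and Sox genes, the nephron lineage regulators and the genes listed for STCs. Listed tubular injury, proximal segment and intercalated type genes could enter the clustering unless also listed for STCs. Some of the segment and type genes are naming markers too. Clusters were named from marker lists: 18405 podocyte-like, 698 PEC-like, 1253 PTEC-like, 587 ascending limb-like, 564 distal convoluted tubule-like, 618 connecting tubule-like, 538 intercalated-like, 747 mesangial-like, 139 fibroblast-like, 312 endothelial-like and 945 monocytic-like cells. A further 748 cells carried PEC and PTEC markers together and 527 carried podocyte and PEC markers together. Both are called mixed, without a cell type name. The connecting tubule-like cluster had Aqp2, Hsd11b2, Fxyd4 and Scnn1g among its leading genes. Its marker list joins genes of the connecting tubule and of collecting duct principal cells, and these cell types were not separated. The library of tdT+ cells alone was 8810 podocyte-like cells of 9689, and its PTEC-like cells were shallow, with a median of 887 UMIs against 6470 in Sham and 10818 in IRI24h-TDN. Monocytic-like cells, which should lack these kidney genes, give the level expected from free RNA for all but Cd24a, which is also known from leukocytes and for which they are no background. After each cell was thinned to 2400 UMIs, 0.109% of them had a Pax2 UMI, 0.655% Pax8, 0.218% Sox4, 0.546% Sox9, 0.218% Prom1 and 3.60% Cd24a, and their median depth was 4083 UMIs in Sham and 5540 in IRI24h-TDN.

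**Figure D1:**
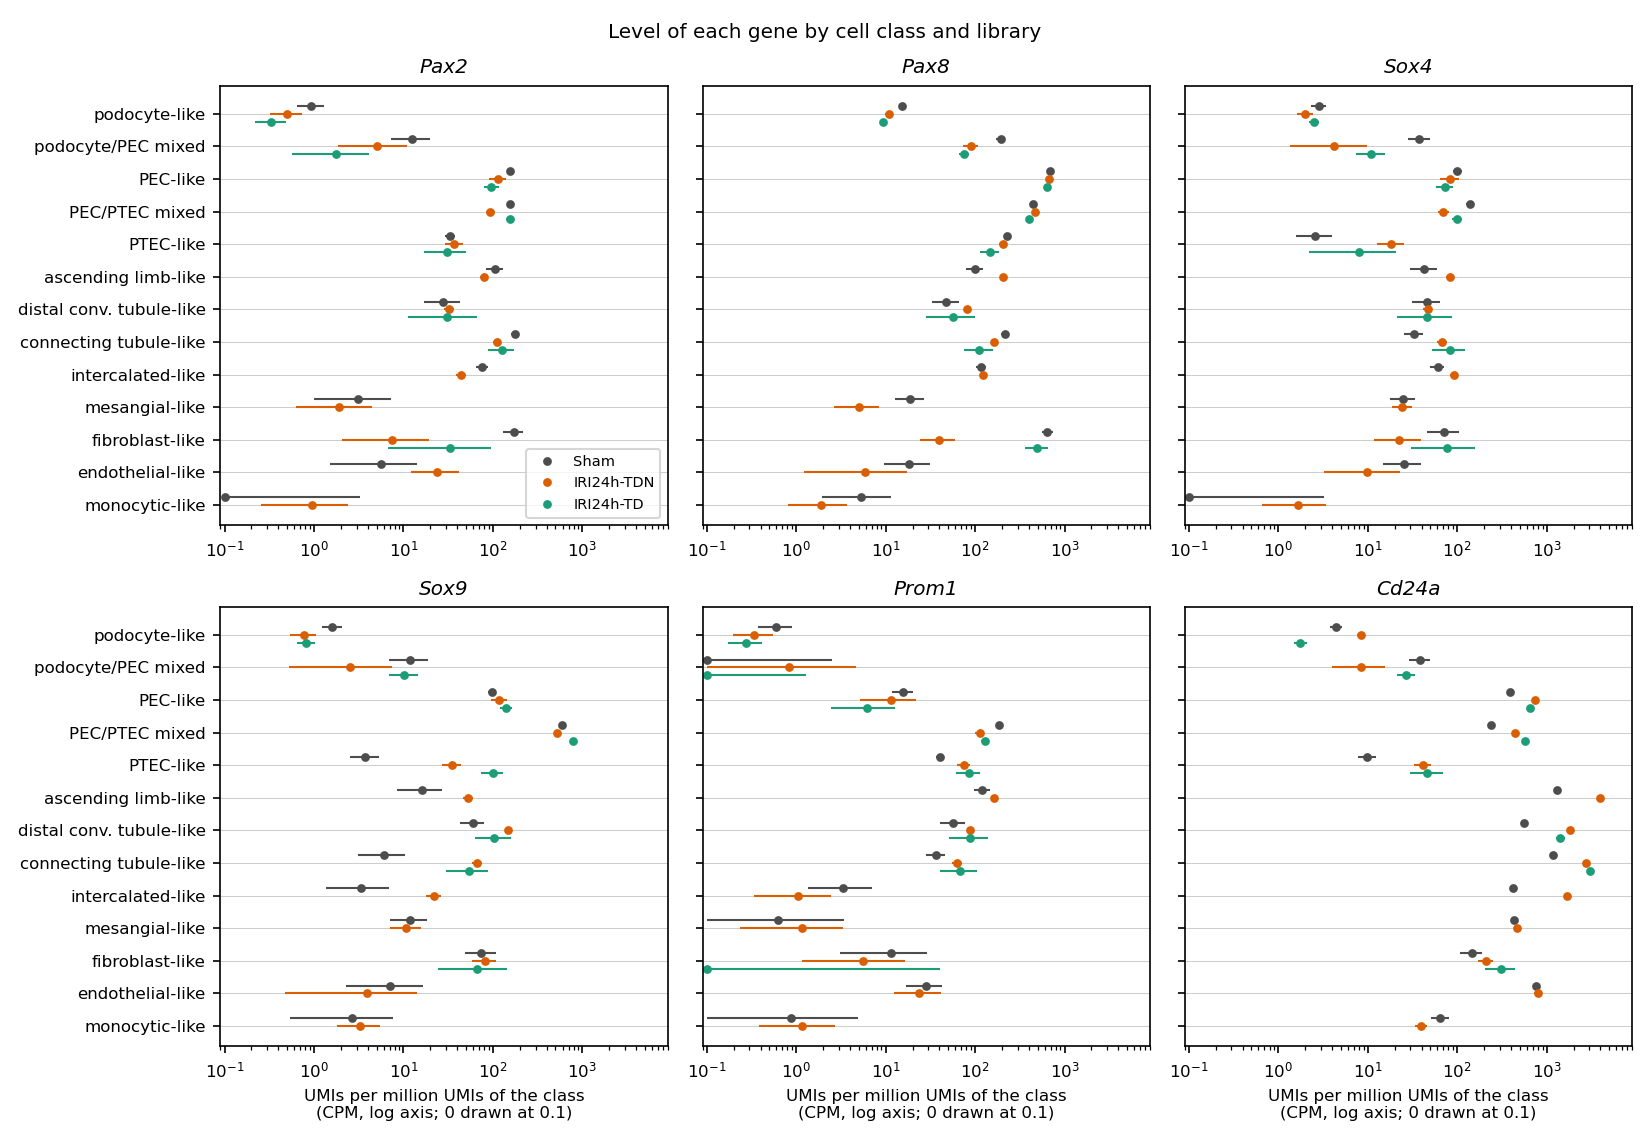
Level of each of the 6 genes by cell class in the 3 libraries, in CPM of the class (log axis, levels of 0 drawn at 0.1), with exact 95% Poisson bars that cover counting error only. Over all libraries, Pax2 has near equal levels in PEC-like, PEC/PTEC mixed and connecting tubule-like cells (137, 135 and 134 CPM), and Pax8 is highest in PEC-like cells (679 CPM). Sox9 is highest in PEC/PTEC mixed cells (620 CPM), and Cd24a is highest in ascending limb-like cells (3584 CPM).

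Pax2 was shared by parietal cells and parts of the distal nephron. Its level over the pooled libraries was 137 CPM in PEC-like, 135 in PEC/PTEC mixed and 134 in connecting tubule-like cells, and these 3 classes could not be ordered, with library ranges of 96.2 to 156, 93.4 to 155 and 112 to 175 CPM. Ascending limb-like cells followed at 83.5 CPM, and intercalated-like cells held 53.4 CPM. PTEC-like (33.6 CPM) and distal convoluted tubule-like cells (31.8 CPM) were lower. Podocyte-like cells were at 0.510 CPM and monocytic-like cells at 0.732 CPM. In all, 6 of the 12 neighbouring pairs in the Pax2 order had overlapping library ranges.

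Pax8 was led by PEC-like cells, at 679 CPM over all libraries and at 696, 679 and 630 CPM in Sham, IRI24h-TDN and IRI24h-TD. All 3 values lie above those of the PEC/PTEC mixed cells, which had 444, 472 and 406 CPM. Thinned to 2400 UMIs, 71.1% (66.6 to 75.4) of Sham PEC-like cells had a Pax8 UMI. Below them came PTEC-like cells at 218 CPM, ascending limb-like cells at 197, connecting tubule-like cells at 179, intercalated-like cells at 123 and distal convoluted tubule-like cells at 77.4 CPM. Podocyte/PEC mixed cells held 110 CPM and podocyte-like cells 11.1 CPM. For Pax8, 7 of 12 neighbouring classes overlapped in their library ranges.

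Fibroblast-like cells held 300 CPM of Pax8 over all libraries, and these did not follow the fibroblast markers. The Pax8 level by library was 645, 39.4 and 493 CPM (Sham, IRI24h-TDN, IRI24h-TD), from 227, 21 and 45 UMIs in 73, 45 and 21 cells. Pax2 was at 170, 7.50 and 32.9 CPM, from 60, 4 and 3 UMIs. Its IRI24h-TD interval of 6.78 to 96.0 CPM reaches below the IRI24h-TDN level, so these 2 libraries could not be ordered for Pax2. The summed level of the 8 PEC markers in these cells was 6034, 2694 and 9114 CPM, and that of the 7 fibroblast markers 10563, 32877 and 4382 CPM. The 2 libraries with more Pax8 were thus those with more PEC and fewer fibroblast marker UMIs. The part of PEC RNA in these values was not tested.

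Sox9 was concentrated in the PEC/PTEC mixed cells, at 584, 523 and 785 CPM in the 3 libraries (Sham, IRI24h-TDN, IRI24h-TD). More than 50% of them (53.2%, 49.5 to 57.0, after thinning) had a Sox9 UMI. The next class, distal convoluted tubule-like cells, had 139 CPM over all libraries, and PEC-like cells followed at 109 CPM. That order depends on the library, since 484 of the 564 distal convoluted tubule-like cells were from IRI24h-TDN and in Sham alone PEC-like cells had 97.5 CPM and distal convoluted tubule-like cells 59.6. Ascending limb-like and connecting tubule-like cells had 47.3 and 45.4 CPM, intercalated-like cells 16.9, PTEC-like cells 14.3 and podocyte-like cells 0.973 CPM. The monocytic-like background was 3.11 CPM. The library ranges of 7 of 12 neighbouring classes overlapped.

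Sox4 was spread more evenly over the epithelium. It had 107 CPM in PEC/PTEC mixed, 92.2 in PEC-like, 81.3 in intercalated-like, 78.4 in ascending limb-like, 57.0 in connecting tubule-like and 46.6 in distal convoluted tubule-like cells, and 9 of 12 neighbouring classes could not be separated by their library ranges. PTEC-like cells stood apart from the rest of the tubule at 5.81 CPM. Mesangial-like cells, a stromal class, held 24.9 CPM, while podocyte-like cells had 2.43 and monocytic-like cells 1.28 CPM. The mesangial-like class was led by the renin gene Ren1 and by smooth muscle genes such as Myh11 and Acta2. Mesangial, smooth muscle and renin cells were not separated in it.

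The 2 surface proteins had different maps. Over the pooled libraries Prom1 was highest in ascending limb-like cells (157 CPM) and in PEC/PTEC mixed cells (147 CPM), which could not be ordered, since in Sham alone they had 120 and 183 CPM, and then in distal convoluted tubule-like (85.1), connecting tubule-like (54.4) and PTEC-like cells (49.3). PEC-like cells had only 13.0 CPM and 1.85% of them a UMI after thinning. Prom1 was at 1.72 CPM in intercalated-like and 0.363 CPM in podocyte-like cells, beside 1.10 CPM in monocytic-like cells.

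Over the pooled libraries Cd24a was highest in the distal nephron, with 3584 CPM in ascending limb-like, 2247 in connecting tubule-like, 1695 in distal convoluted tubule-like and 1309 in intercalated-like cells. Endothelial-like cells held 763 CPM, PEC-like 497, mesangial-like 456 and PEC/PTEC mixed cells 389 CPM. Most cells of the distal classes were from IRI24h-TDN. In Sham alone ascending limb-like (1304 CPM) and connecting tubule-like cells (1188) still came first, but endothelial-like cells (767) stood above distal convoluted tubule-like (565) and intercalated-like cells (423). PTEC-like cells had 17.5 CPM and podocyte-like cells 4.27 CPM over all libraries, and the monocytic-like class 44.3 CPM. The part of the cells' own RNA in the monocytic-like level was not tested. PEC-like cells, which led Pax8, stood in the middle of the Prom1 and Cd24a orders.

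After injury, the 6 genes were compared between the 2 mixtures, IRI24h-TDN and Sham, within each class with at least 50 cells in both. A ratio of CPM of at least 2 with at least 50 UMIs in both libraries together was called. Of 53 pairs of gene and class that could be read, 13 were higher and 4 lower, where over all genes between 2.32% and 14.7% were higher and between 3.32% and 12% lower, depending on the class. Cd24a was higher in 5 of its 12 classes, Sox9 in 5 of 8, Sox4 in 2 of 10 and Pax8 in 1 of 9, while neither Pax2 (8 classes) nor Prom1 (6 classes) passed the limit anywhere. The 13 higher pairs were all in tubule classes.

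**Figure D2:**
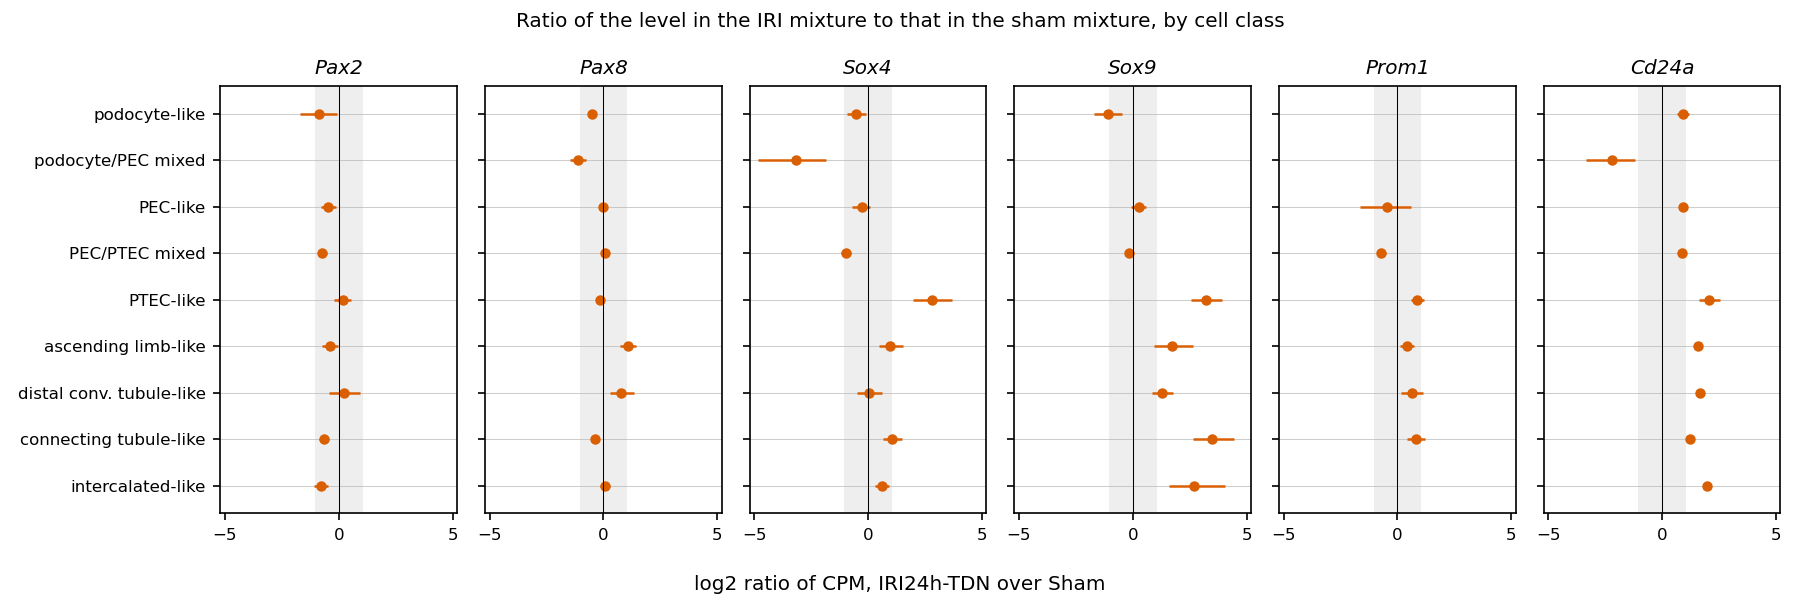
Log2 ratio of CPM, IRI24h-TDN over Sham, for the 6 genes in 9 cell classes, with exact 95% intervals of the ratio that cover counting error only and a grey band for changes under 2-fold. Cd24a, Sox9 and Sox4 lie above the band in several tubule classes, while Pax2 and Prom1 stay within it wherever they have enough UMIs to be read.

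In PTEC-like cells, 3 of the 6 genes rose, and all from a low level. Sox9 had 3.74 CPM in Sham and 35.0 in IRI24h-TDN, from 29 and 67 UMIs, a ratio whose interval began at 5.97, and 99.1 CPM in the 111 shallow cells of IRI24h-TD, where 1 cell held 38.8% of its 49 UMIs. Sox4 went from 2.58 to 18.3 CPM (20 and 35 UMIs, ratio 3.98 to 13.0), with 8.09 CPM in IRI24h-TD. Cd24a went from 9.80 to 41.2 CPM (76 and 79 UMIs, ratio 3.03 to 5.84), with 46.5 CPM in IRI24h-TD. The IRI24h-TD value of Sox4 rests on 4 UMIs and that of Cd24a on 23. Among all genes read in this class 14% passed the limit upward and 12% downward, a class with much change in general. Pax2 stayed between 30.3 and 37.1 CPM in the 3 libraries, and Pax8 had 226, 204 and 146 CPM. Prom1 was at 40.8, 74.7 and 84.9 CPM, short of the limit.

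At equal depth these PTEC-like shares remained small. A Sox9 UMI was found in 1.05% (0.481 to 1.98) of thinned Sham cells and 6.11% (2.67 to 11.7) of IRI24h-TDN cells, and a Sox4 UMI in 0.350% and 3.82%. Cd24a was in 2.57% and 9.16% of cells, beside 4.37% and 3.40% of monocytic-like cells. The class itself had changed: its 16 PTEC markers summed to 67005 CPM in Sham and 12950 in IRI24h-TDN, the tubular injury genes to 150 and 9271 CPM, and the 8 PEC markers to 552 and 1475 CPM. The part of these shifts in the 3 ratios was not tested. The Cd24a ratio depended on the clusters, from 1.14 on the log2 scale with at least 500 genes per barcode to 5.55 with 4000 variable genes, and stayed above the limit in 15 of 15 alternatives, as did Sox9 and Sox4.

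In the distal nephron, Cd24a rose in every class. In ascending limb-like cells the level was 1304 CPM for Sham, 3934 for IRI24h-TDN (ratio 2.84 to 3.21) and 4921 for the 14 cells of IRI24h-TD. It had 565, 1812 and 1419 CPM in distal convoluted tubule-like cells, and 1188, 2777 and 3051 CPM in connecting tubule-like cells. Intercalated-like cells had 423, 1678 and 1778 CPM, a ratio of 3.70 to 4.25. In the IRI24h-TDN mixture Cd24a was above Sham in all 4 classes.

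The shares of cells moved the same way. After thinning, a Cd24a UMI was found in 80.0% (71.3 to 87.0) of Sham and 98.4% (96.8 to 99.4) of IRI24h-TDN ascending limb-like cells, in 67.8% and 90.8% of distal convoluted tubule-like cells, in 80.5% and 96.1% of connecting tubule-like cells, and in 50.3% (42.4 to 58.2) and 84.3% (80.1 to 88.0) of intercalated-like cells. In the named classes outside the epithelium that could be read, Cd24a did not pass the limit. Among them, mesangial-like cells had 434 and 470 CPM, and endothelial-like cells 767 and 792 CPM. In unnamed clusters led by Chil3 and S100a8 and by Jchain and Igkc it was lower past 2-fold, as given at the end.

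**Figure D3:**
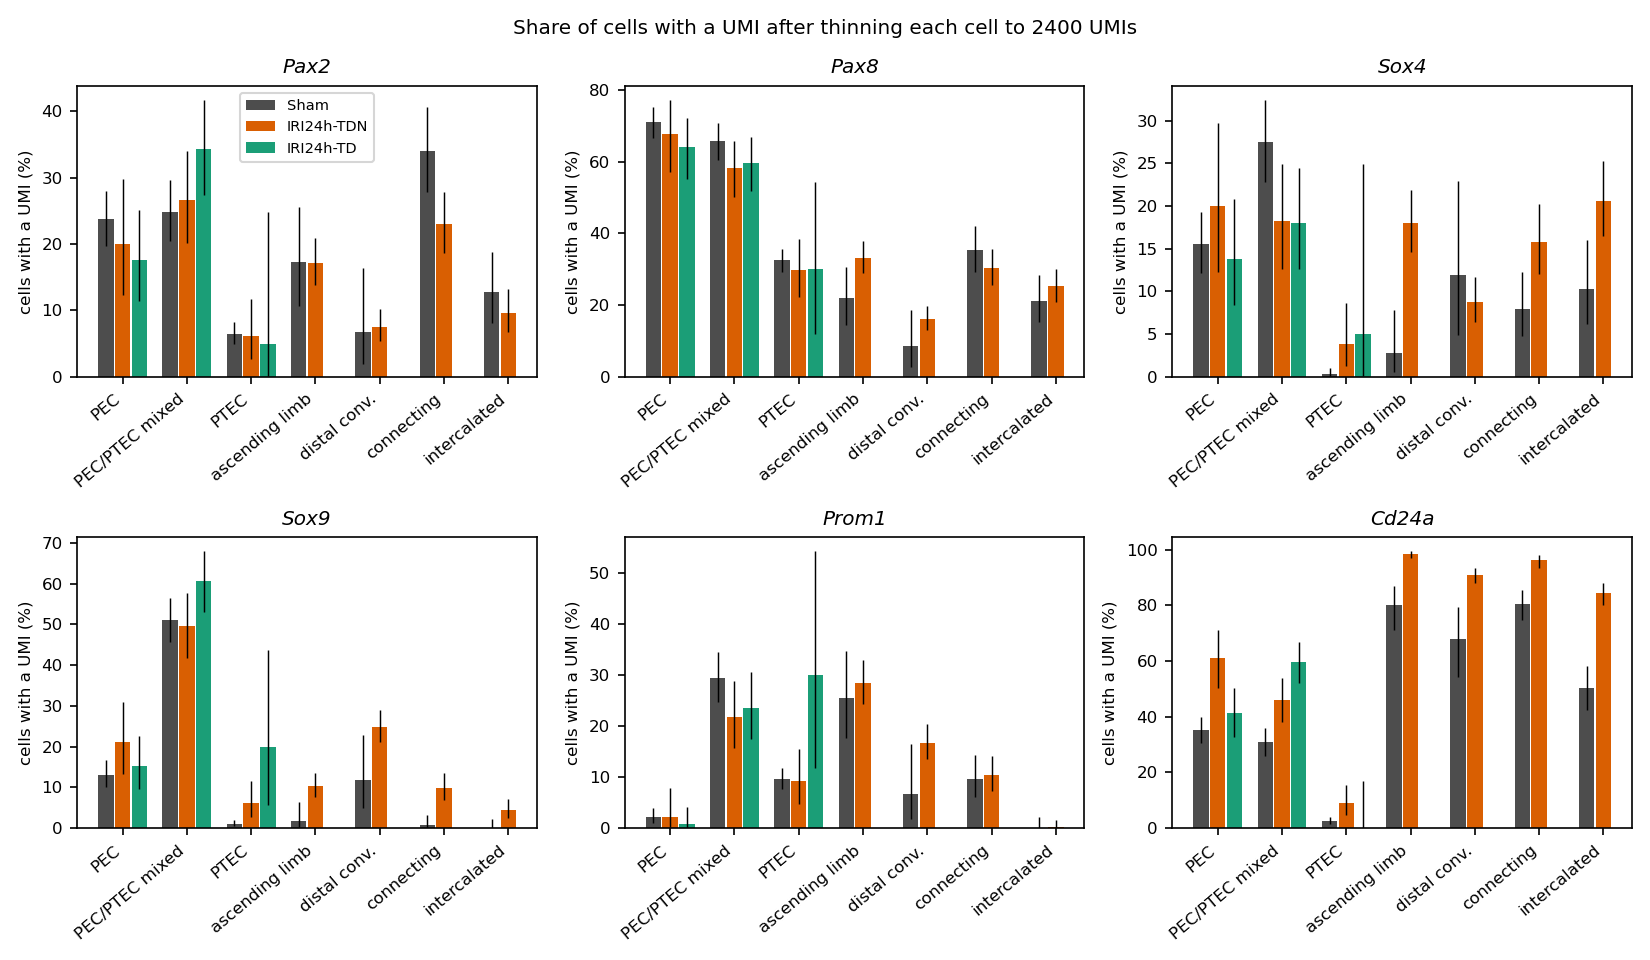
Percent of cells with at least 1 UMI of each gene after every cell was thinned to 2400 UMIs, in 7 classes, with exact 95% Clopper-Pearson bars that cover counting error only. IRI24h-TD is drawn only for PEC-like, PEC/PTEC mixed and PTEC-like cells. Cd24a bars of the distal classes are taller in IRI24h-TDN than in Sham, while the widest gap of Pax2 is downward, in connecting tubule-like cells (34.1% in Sham, 23.0% in IRI24h-TDN).

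Sox9 also rose in all 4 distal classes. Connecting tubule-like cells had 5.99 CPM in Sham (12 UMIs), 66.7 in IRI24h-TDN (239 UMIs) and 53.6 in IRI24h-TD, a ratio of 6.26 to 21.9 between the mixtures. Ascending limb-like cells had 15.9, 52.9 and 39.4 CPM, and intercalated-like cells 3.38, 21.8 and 46.8 CPM. After thinning, 9.85% of connecting tubule-like, 10.2% of ascending limb-like and 4.35% of intercalated-like cells of IRI24h-TDN had a Sox9 UMI, against 0.885%, 1.82% and 0% in Sham (0 of 165 cells, with an upper bound of 2.21%). These are shares at 2400 UMIs and not shares of expressing cells, and unthinned they were 24.0%, 18.9% and 8.67% in IRI24h-TDN. Distal convoluted tubule-like cells had 59.6, 147 and 103 CPM, and the Sham value hung on 1 cell of 59 that held 53.5% of its Sox9 UMIs. Without the top cell of each library that log2 ratio was 2.32 in place of 1.30, and with cells thinned before the sums it was 0.90, under the limit. The ascending limb ratio fell to 0.12 on the log2 scale when barcodes were limited to 20% mitochondrial UMIs.

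Sox4 and Pax8 each passed the limit in the distal nephron at values close to it. Sox4 in connecting tubule-like cells was at 32.9, 68.4 and 82.2 CPM (log2 ratio 1.05), and under the limit with at most 20% mitochondrial UMIs (0.53) or 1000 variable genes (0.94). In ascending limb-like cells it was at 42.9, 83.9 and 98.4 CPM, a log2 ratio of 0.97. Pax8 in ascending limb-like cells was at 99.3, 208 and 400 CPM (1.06), and under the limit in 4 of 16 alternatives, the lowest 0.52. The IRI24h-TD value of Pax8 rests on 14 cells and 61 UMIs, and 1 cell held 49.2% of them. Sox4 did not pass in distal convoluted tubule-like cells (45.8, 46.7 and 46.1 CPM) or in intercalated-like cells (60.4, 91.4 and 46.8 CPM).

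Pax2 had ratios under 1 in some distal classes without passing the limit in the class as a whole. It had 175, 112 and 125 CPM in connecting tubule-like cells (log2 ratio -0.65), 75.4, 44.0 and 46.8 CPM in intercalated-like cells (-0.78), and 104, 79.9 and 85.3 CPM in ascending limb-like cells. Prom1 had 120, 161 and 236 CPM in ascending limb-like, 56.9, 87.8 and 87.1 in distal convoluted tubule-like, and 36.4, 63.4 and 67.9 in connecting tubule-like cells, each time under the limit.

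The background in these classes was lower than the count of the 6 genes past the limit upward. In ascending limb-like cells 3 of 6 were higher against 8.71% of all genes (8.8% lower), in connecting tubule-like cells 3 of 6 against 6.52% (5.95% lower), in distal convoluted tubule-like cells 2 of 6 against 9.75% (9.27% lower), and in intercalated-like cells 2 of 5 against 7.69% (4.61% lower). Median log2 ratios of the genes read (6, 6, 6 and 5) were 1.02, 0.93, 0.70 and 0.60, against -0.05, -0.02, -0.04 and -0.02 over all genes read. The IRI24h-TDN cells of these classes had fewer UMIs of their own markers in every case: 5201 against 23929 CPM for the 6 ascending limb markers, 2760 against 5906 for the 5 distal convoluted tubule markers, 12870 against 19782 for the 9 connecting tubule markers and 10738 against 12063 for the 8 intercalated markers. Injury genes summed to 61446 against 6939, 41166 against 4226, 30291 against 2974 and 22256 against 1312 CPM. The part of these shifts in the ratios was not tested.

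Intercalated-like cells comprised a type A cluster, led by Aqp6 and Slc4a1, and a type B cluster, led by Slc26a4, and Cd24a rose in each. It went from 482 to 1730 CPM in the type A cluster and from 313 to 1650 CPM in the type B cluster. Sox9 went from 4.43 to 45.7 CPM in the first and from 1.40 to 9.02 CPM in the second, the latter from 1 and 28 UMIs, a ratio of 1.07 to 264. Sox4 had 73.9 and 108 CPM in type A and rose from 34.9 to 82.8 CPM in type B. Pax2 fell past the limit in type B, from 71.3 to 33.8 CPM (51 and 105 UMIs, log2 ratio -1.08), while type A had 77.6 and 63.1 CPM.

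In PEC-like cells none of the 6 genes passed the limit, where 3.03% of all genes did upward and 7.05% downward. Cd24a came closest, with Sham at 387 CPM, IRI24h-TDN at 742 and IRI24h-TD at 659, a log2 ratio of 0.94 and a ratio of 1.73 to 2.11. After thinning it was found in 35.2% (30.7 to 39.9), 61.1% (50.3 to 71.2) and 41.2% (32.7 to 50.1) of cells. Pax2 had 156, 113 and 96.2 CPM, a ratio of 0.573 to 0.910, Sox4 had 101, 82.7 and 73.3 CPM, and Sox9 97.5, 117 and 139 CPM. Between the mixtures Pax2 and Sox4 were lower and Sox9 higher in IRI24h-TDN, all by less than 2-fold. Prom1 had 15.6, 11.4 and 6.18 CPM. The PEC markers summed to 9675, 12053 and 12136 CPM, not less in the injured libraries than in Sham.

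In the PEC/PTEC mixed cells no gene passed either, against 7.08% of all genes upward and 11.8% downward. Cd24a had 238, 440 and 567 CPM (log2 ratio 0.89), Sox4 138, 70.2 and 99.6 (-0.97), Prom1 183, 112 and 130, Pax2 154, 93.4 and 155, and Sox9 584, 523 and 785 (-0.16). Cd24a was past 2-fold in 5 of 16 alternatives, with log2 ratios from -0.42 to 1.56, and Sox4 in 3 of 16. The sign for Sox9 held in 11 of 16 alternatives, with log2 ratios from -1.01 to 0.52. The makeup of the class differed between libraries, as described next.

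**Figure D4:**
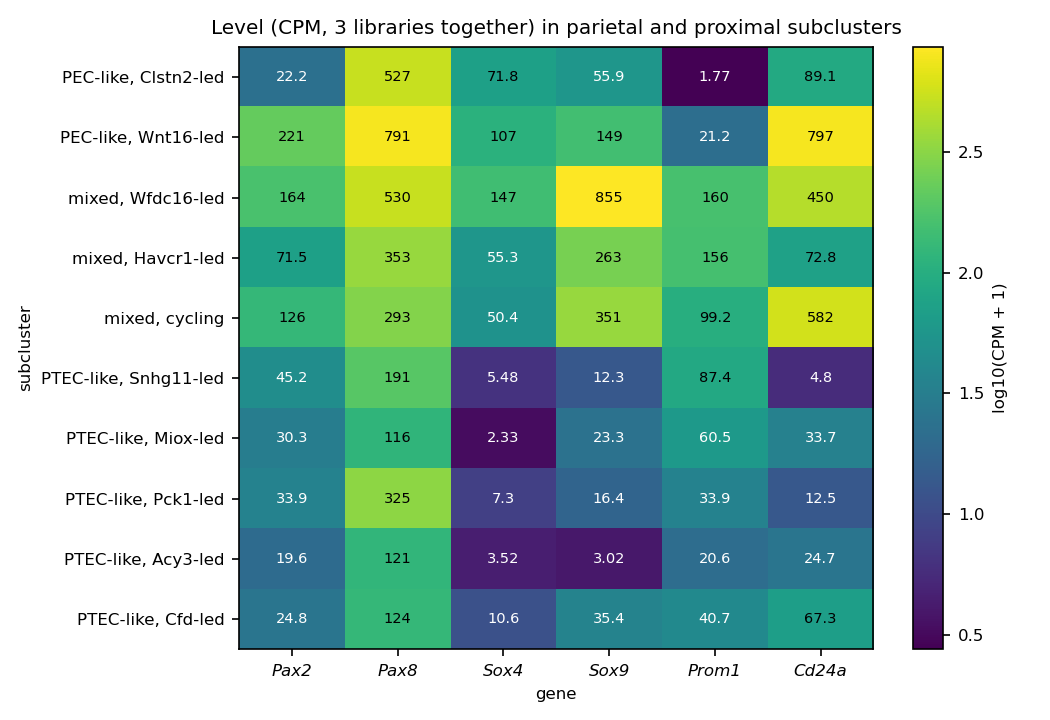
Level of the 6 genes in 10 subclusters of parietal and proximal cells, libraries together, as log10 of CPM plus 1 with the CPM printed. Subcluster 1, a mixed group, has the highest Sox9 (855 CPM), subcluster 4, a PEC-like group, the highest Pax2 (221 CPM) and Pax8 (791 CPM), and the PTEC-like subclusters have low Sox4, Sox9 and Cd24a.

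Distinct groups of cells made up the mixed class. Subcluster 1, with Wfdc16, Sfrp5 and Gc among its leading genes, gave 80.6% of the class in Sham, 50.3% in the injured mixture and 53.4% in IRI24h-TD. Subcluster 10, led by the injury gene Havcr1 and by Krt20, was 14.5%, 28.1% and 17.8%, and subcluster 12, of cells with cell cycle genes, was 4.92%, 21.6% and 28.8%. The injured libraries thus drew less of the class from subcluster 1.

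Within subcluster 1, Sox9 stood at 702 CPM in the Sham library, at 1029 after injury in the mixture and at 1066 in the tdT+ cells, a ratio of 1.36 to 1.57 between the mixtures. A Sox9 UMI was in 58.2%, 69.1% and 66.7% of its cells after thinning. Cd24a passed the limit there, with 296, 658 and 632 CPM (ratio 2.01 to 2.45). Pax2 had 181, 112 and 170 CPM, Pax8 507, 598 and 523, Sox4 167, 113 and 128, and Prom1 185, 121 and 134 CPM. Between the mixtures Sox9, Cd24a and Pax8 were higher in IRI24h-TDN, and Pax2, Sox4 and Prom1 lower, all but Cd24a by less than 2-fold.

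The Havcr1-led subcluster 10 had less Sox9, with 254, 178 and 487 CPM, and little Cd24a, with 21.5, 60.7 and 192 CPM, beside 221 CPM of Prom1 in Sham and 114 in IRI24h-TDN. The cycling subcluster 12 had 79.2, 251 and 513 CPM of Sox9, 150, 634 and 653 of Cd24a, and 8.33, 123 and 161 of Pax2, from only 19 cells in Sham. Mixed subclusters together held 89.2% of all Sox9 UMIs of the parietal and proximal subclusters.

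PEC-like cells fell into a pair of subclusters with unlike Pax2 and Cd24a levels. Subcluster 2, with Clstn2 and Tenm2 among its leading genes, had 20.3, 26.3 and 22.2 CPM of Pax2 in Sham, in IRI24h-TDN and over all libraries, whereas subcluster 4, with Wnt16 and Tnc, had 260, 168 and 146 CPM in Sham, IRI24h-TDN and IRI24h-TD. Cd24a followed the same division, at 64.2, 154 and 126 CPM in subcluster 2 and 636, 1113 and 1036 CPM in subcluster 4. Pax8 was high in both, with 597, 473 and 343 CPM in the first and 771, 810 and 834 CPM in the second. Sox9 was 55.9 CPM over all libraries in subcluster 2 and 149 in subcluster 4. Cd24a in subcluster 2 passed the limit, with a ratio of 1.66 to 3.45, and that in subcluster 4 did not.

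Of the PTEC-like subclusters, 3 had at least 30 cells in both mixtures, and Prom1 passed the limit in 1 of them. In subcluster 6, with Pck1 among its leading genes, it went from 8.17 to 96.4 CPM (22 and 82 UMIs, ratio 7.30 to 19.9), whereas in subcluster 3, with Snhg11 and G6pc, it had 93.2 and 65.5 CPM. Sox9 went from 3.71 to 36.5 CPM in subcluster 6 (10 and 31 UMIs) and 4.93 to 23.0 CPM in subcluster 3 (11 and 13 UMIs), counts under the minimum of 50 used above. Cd24a in subcluster 8, which had Cfd among its leading genes, went from 5.75 to 159 CPM, from 2 and 30 UMIs, a ratio of 7.01 to 238.5, also under that minimum. In subcluster 6 Cd24a had 14.5 and 9.41 CPM (39 and 8 UMIs), so the subclusters did not all move as the class did, and 1 cell held 24.1% of the class's Cd24a UMIs in IRI24h-TDN. Each of these subclusters had 31 or 35 cells in IRI24h-TDN.

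In podocyte-like cells Sox9 and Prom1 were under the level of monocytic-like cells, and Pax8 and Sox4 above it. For Pax2 these 2 classes could not be ordered, with library ranges of 0.333 to 0.925 CPM in podocyte-like and 0 to 0.941 in monocytic-like cells. Pax8 had 15.2, 10.9 and 9.41 CPM and a UMI in 3.55%, 2.55% and 2.26% of thinned cells. Cd24a had 4.44, 8.38 and 1.77 CPM and a UMI in 0.771%, 1.90% and 0.291% of thinned cells. Sox9 was the single gene past the limit, lower at 1.61 and 0.764 CPM (59 and 38 UMIs), and its share of 0.197% of thinned cells is under the 0.546% of monocytic-like cells, so it is not read as expression. Of all genes in this class 4.56% were higher and 6.92% lower.

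In podocyte/PEC mixed cells 3 of the 6 genes could be read, and these 3 were lower in IRI24h-TDN than in Sham. Pax8 had 193, 89.2 and 75.5 CPM, Sox4 37.8, 4.21 and 10.9 CPM (55, 5 and 31 UMIs) and Cd24a 38.5, 8.42 and 26.7 CPM (56, 10 and 76 UMIs), against 2.32% of all genes higher and 5.19% lower. The Cd24a value rested on few cells, 1 of which held 35.7% of its Sham UMIs, and its ratio turned upward in 3 alternatives. The Pax8 ratio was under the limit without Harmony correction (-0.64) and with cells thinned before the sums (-0.87). The 8 PEC markers also summed to less in the injured libraries (2212, 1134 and 1173 CPM) and the 16 PTEC markers went from 355 to 7.6 CPM between the mixtures. The part of these shifts in the ratios was not tested.

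The study asked whether progenitor markers occur in the same cells. Of the PEC/PTEC mixed cells, thinned to 2400 UMIs, 15.7% (109 of 693, 13.1 to 18.7) had a Pax2 and a Sox9 UMI together, and by library 13.7%, 14.5% and 20.8% in Sham, IRI24h-TDN and IRI24h-TD. The product of the separate shares of Pax2 and Sox9 was 14.7%, inside that interval. In PEC-like cells 4.17% (27 of 647, 2.77 to 6.01) had both, and in PTEC-like cells 0.298% (3 of 1008). Pax2 and Pax8 were together in 16.4% of PEC-like, 19.2% of mixed and 10.9% of connecting tubule-like cells.

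Prom1 and Cd24a were found together most often outside the parietal cells. Ascending limb-like cells had Prom1 and Cd24a UMIs in 27.1% (155 of 572, 23.5 to 30.9), against a product of shares of 26.6%. It was 13.6% in distal convoluted tubule-like, 10.1% (70 of 693) in PEC/PTEC mixed and 9.88% in connecting tubule-like cells. Of PEC-like cells 1.70% (11 of 647) had both, and of PTEC-like cells 0.198% (2 of 1008). These shares follow the depth they are read at.

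The lineage label of the study rests on Wt1, which encodes a zinc finger transcription factor of podocytes and some PECs. Among thinned PEC-like cells, 15.8% (59 of 374) of those with a Wt1 UMI had Pax2, against 30.4% of those without, and 13.1% against 16.8% had Sox9. Among thinned mixed cells with a Wt1 UMI, 61.5% (144 of 234, 55.0 to 67.8) had Sox9, against 49.0% (44.4 to 53.7) of those without, and 28.6% against 27.2% had Pax2. The PEC-like value for Pax2 mixes a pair of subclusters: in subcluster 2, 4.56% of cells with a Wt1 UMI and 1.08% of those without had Pax2, and in subcluster 4, 36.1% and 45.6%. At full depth, 218 of 574 PEC-like cells with a Wt1 UMI had Pax2 and 138 Sox9, beside shares of 38.3% and 22.5% over all PEC-like cells. Whether cells with and without Wt1 differ was not tested. Also at full depth, 84.2% of 501 mixed cells with a Wt1 UMI had Sox9, 68.9% Pax2 and 93.0% Pax8, and of 203 such PTEC-like cells 5.42% had Sox9 and 22.7% Pax2. A Wt1 UMI was in 203 of 1253 PTEC-like cells, and also in 51 of 312 endothelial-like and 66 of 945 monocytic-like cells. The part of free RNA in the Wt1 UMIs was not tested.

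Other genes of the same families and of the nephron lineage were read from fixed lists. Beside the counts of these and the later lists stand the shares of all genes past the limit. They were 3.03% higher and 7.05% lower in PEC-like, 7.08% and 11.8% in mixed, and 14% and 12% in PTEC-like cells. The remaining Pax genes were close to absent, the highest being Pax9 at 2.26 CPM in PTEC-like cells, with Pax6 in PEC-like cells next and Pax1 at 0.465 CPM in mesangial-like cells. Of the remaining Sox genes Sox18, Sox17 and Sox13 were highest, at 489, 349 and 209 CPM in endothelial-like cells. In PEC-like cells 1 of 6 remaining Sox genes that could be read was lower after injury (Sox11, 21.1 to 7.63 CPM), and in mixed cells 1 of 4 (Sox8, 18.4 to 0.336 CPM). In PTEC-like cells Sox12 was higher (4.90 to 14.6 CPM) and Sox13 lower (28.2 to 12.5 CPM) of 3 that could be read.

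Nephron lineage regulators in PTEC-like cells passed the limit only downward. None of 11 was higher and 4 were lower, beside 14% and 12% of all genes read in the class. The 4 included Irx3 (91.7 to 12.5 CPM), Wt1 (26.7 to 10.4) and Emx1 (13.2 to 3.66). The median log2 ratio was -0.72 over the 11, against 0.16 over all genes of the class and 1.47 over the 6 genes. The 10 podocyte markers also summed to less in these cells, with 687 CPM in Sham and 359 in IRI24h-TDN. The part of podocyte RNA in the Wt1 ratio was not tested. In mixed cells Irx3 was higher (4.90 to 16.1 CPM) and Hnf4a (268 to 91.0), Lhx1 (28.9 to 10.1) and Emx1 (10.8 to 2.35) were lower, of 10. In PEC-like cells Eya1 alone was lower (70.5 to 34.3 CPM), of 9. The highest regulators of any class were Tfcp2l1 (1535 CPM, intercalated-like), Wt1 (1119, podocyte-like) and Hnf4a (541, PTEC-like).

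Genes listed for STCs included many that were higher after injury. Over all genes read, 14%, 7.08% and 3.03% were higher in PTEC-like, mixed and PEC-like cells. In PTEC-like cells 6 of 7 were higher, namely Vim (68.6 to 283 CPM), Havcr1 (5.93 to 2072), Anxa3 (10.7 to 232), S100a6 (5.29 to 1308), Krt8 (59.6 to 146) and Krt18 (1.93 to 61.1), with a median log2 ratio of 4.44 over the 7. In mixed cells 7 of 10 were higher, among them Vim (164 to 1064 CPM) and S100a6 (28.2 to 6260), and in PEC-like cells 3 of 7: Vim (2194 to 5382), S100a6 (608 to 3599) and Cdh6 (458 to 1020). Tubular injury genes, a list that also holds Havcr1, were higher in 5 of 5, 4 of 5 and 2 of 3 cases in PTEC-like, mixed and PEC-like cells. Of the genes of the S3 segment, 4 of 4 were lower in PTEC-like cells, and of those of the S1 and S2 segments 1 of 4.

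Across the 13 classes with at least 50 cells, libraries pooled, the genes whose log2 level (CPM plus 10) was most like that of each of the 6 were ranked by Pearson's r, as a description over classes that share libraries and depth. Of 7557 candidates, Glis3 (0.97), Stxbp6 (0.94) and Pak4 (0.93) were nearest to Pax2, and Bicc1 (0.94), Zfp618 (0.91) and Oaf (0.90) to Pax8. Hoxb9 (0.93), Tbca (0.91) and Tceal9 (0.90) were nearest to Sox4, and Ap2m1 (0.90), Cops6 (0.87) and Drg1 (0.86) to Sox9. Metap1 (0.96), Mapk4 (0.94) and Kcnj16 (0.93) were nearest to Prom1, and Hoxb6 (0.92), Capn5 (0.92) and Hoxb5 (0.91) to Cd24a. Among the 6 themselves, Pax2 and Pax8 were the closest pair (0.89) and Pax8 and Cd24a the farthest (0.28).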

How the data were processed

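Single cells from 3 mouse kidney libraries were captured on the BD Rhapsody platform. UMI counts, as deposited, were raw and unscaled, with genes by barcodes in 1 table per library, and the submitters' processing notes name CASAVA 1.8, UMI-tools, Seurat and the build mm10. Positions are from GENCODE M21 (GRCm38). Sequences were not used here.

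Barcodes with at least 200 genes and at most 50% mitochondrial UMIs were kept. They were clustered on 2000 variable genes, with 30 principal components, Harmony (theta 2), 15 neighbours and Leiden resolution 1. The 6 genes, the other Pax and Sox genes, the nephron lineage regulators and the genes listed for STCs were left out. The other lists were not. Parietal, proximal and fibroblast clusters were clustered again at resolution 0.9. A class was named from at least 3 of its markers in at least 25% of cells, and mixed subclusters held at least 3 PEC markers with at least 5 PTEC markers, or podocyte with PEC markers. Doublets were scored against simulated ones. The top 6% were kept but marked, and subclusters of over 50% marked cells stayed unnamed, since the study states that multiplets were excluded. In simulated data of 3600 cells in 6 classes, without a mixed class, 100% of 56 planted doublets were marked. The marked 6% was a larger share than the planted one, so this was an easy check. It cannot tell whether cells of the mixed classes are doublets.

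UMIs were summed per class and library and expressed as CPM. Shares were read after thinning cells to 2400 UMIs. A ratio was called at 2-fold with at least 50 UMIs in both libraries together. In simulated data with counting error only, 4-fold changes planted in well-counted genes were recovered in 99.5% of cases for PEC-like cells. For PEC/PTEC mixed and PTEC-like cells it was 100%. Of the unchanged among 8723, 9925 and 9506 genes tested, 1.13%, 0.144% and 0.634% passed 2-fold. The check does not cover recovery of 2-fold changes, of changes near the minimum of 50 UMIs, or variation between cells. The 6 genes, the other lists and the markers were chosen with earlier results of these data known. All 6 genes are named, and of the other lists the 3 highest genes and those past 2-fold in parietal or proximal cells, where each list was short enough; 1 gene of these lists is not reported here. For likeness, the 3 genes with the highest r are named. Alternatives covered filters, doublets, Harmony, resolution, variable genes, scaling (TMM, edgeR 4.0.16), thinning depth and UMI minimum. A further 3 (no shared barcodes, thinning before the sums, no top cell) were chosen after seeing the data. Python 3.11.15, numpy 2.4.6, scipy 1.17.1, scikit-learn 1.9.0, umap-learn 0.5.12, igraph 0.11.9, leidenalg 0.10.2 and R 4.3.3 were used.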

Additional observations from a re-analysis of the deposited data

Results flagged for a closer look

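Of the 6 genes, 4 passed the 2-fold limit in opposite directions in different classes, and in each case the difference between the classes was not tested, since each condition is 1 library. Pax8 had a log2 ratio, IRI24h-TDN over Sham, of -1.11 in podocyte/PEC mixed cells and of 1.06 in ascending limb-like cells. Sox4 was at -3.17 in podocyte/PEC mixed and 2.82 in PTEC-like cells. Sox9 was at -1.07 in podocyte-like cells and at 3.48 in connecting tubule-like cells. Its share of thinned podocyte-like cells, 0.197%, is under the 0.546% of monocytic-like cells. Cd24a was at -2.19 in podocyte/PEC mixed and 2.07 in PTEC-like cells.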

How the results depend on the processing

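No paired analysis was possible because each condition is 1 library. With 1 pool of kidneys per condition, differences between libraries cannot be told apart from differences between pools. The pairs of gene and class past 2-fold upward numbered 9 to 15 over the alternatives (13 as reported). Cd24a stayed past it in ascending limb-like, connecting tubule-like and intercalated-like cells in 16 of 16 alternatives and in distal convoluted tubule-like cells in 11 of 11. Those past it downward (4 as reported) were 2 with at least 500 genes per barcode, 1 with at most 20% mitochondrial UMIs, 2 with 1000 variable genes, 7 with no UMI minimum and 0 with cells thinned before the sums. Cd24a in podocyte/PEC mixed cells reversed to log2 ratios of 0.35 without the top doublet scores, 0.48 without Harmony and 1.21 with 1000 variable genes. Nephron regulators lower in PTEC-like cells were 2 with cells thinned before the sums. The share of Sox9 UMIs in mixed subclusters (89.2%) was 90.3% with at most 20% mitochondrial UMIs, 88.0% without the top doublet scores, 74.4% without Harmony and 87.6% with 1000 variable genes. Shares of cells with Pax2 and Sox9 in mixed cells were 5.32%, 32.0% and 50.3% at 1200 UMIs, at 4800 UMIs and unthinned, and 12.2% without the top doublet scores, and those with Prom1 and Cd24a in ascending limb-like cells were 13.4%, 44.3% and 60.3% at the same depths. The cause was not tested, other than depth, which thinning sets. The highest class of Pax2 became connecting tubule-like (146 CPM, at most 20% mitochondrial UMIs) or PEC/PTEC mixed (137 CPM at resolutions 0.6 and 1.6, 140 CPM with 1000 variable genes), that of Prom1 became mixed (148 CPM with at most 20% mitochondrial UMIs, 156 CPM with 1000 variable genes) and that of Sox4 PEC-like (92.1 CPM, without the top doublet scores). A limit of 20% mitochondrial UMIs left no distal convoluted tubule-like class, and without Harmony no PTEC-like ratio could be had. TMM scaling shifted log2 ratios by -0.27 in PTEC-like cells.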

Other observations

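An unnamed subcluster of 66 cells (16, 36 and 14 in Sham, IRI24h-TDN and IRI24h-TD), with Sprr2a3, Psca and Krt19 among its leading genes, held several of the 6 genes at once. Cd24a was at 2841, 2218 and 709 CPM, Pax8 at 856, 375 and 325 CPM, and Pax2 at 558, 116 and 142 CPM in Sham, IRI24h-TDN and IRI24h-TD. Sox9 was at 112, 155 and 856 CPM. Psca encodes a surface antigen and Krt19 a keratin of simple epithelia.

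Cells of the PEC/PTEC mixed class with the injury gene Havcr1 had Sox9 less often in IRI24h-TDN. After thinning, 26.9% of 52 Havcr1+ cells had a Sox9 UMI, against 60.2% (50.5 to 69.3) of those without Havcr1. Lcn2, another injury gene, went with more Sox9 there: 75.0% of 24 Lcn2+ cells had it, against 45.4% of the rest. The class joins subclusters of unlike Sox9 level in IRI24h-TDN, 178 CPM in the Havcr1-led subcluster 10 and 1029 in subcluster 1. These shares were not split by subcluster, and the part of its makeup in them was not tested. In podocyte-like cells of IRI24h-TDN, 9.48% (4.83 to 16.3) of 116 cells with an Lcn2 UMI had Cd24a, against 1.73% of the rest, 2 genes that are abundant in ascending limb-like cells of the same library. The part of free RNA in these shares was not tested.

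A second unnamed subcluster of 115 cells, 80.9% of them among the top doublet scores, had 48.2, 122 and 738 CPM of Sox9 in Sham, IRI24h-TDN and IRI24h-TD. An unnamed cluster led by Chil3 and S100a8 had 239 CPM of Cd24a over all libraries. It had 502 CPM in Sham, from 36 cells and 58 UMIs, and 214 in IRI24h-TDN, from 311 UMIs (log2 ratio -1.23). Another, led by Jchain and Igkc, had 375 CPM in Sham and 161 in IRI24h-TDN, from 354 and 162 UMIs (-1.22).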
